A study of Saccharomyces cerevisiae with 12 samples.

Results

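The YRF1 genes YRF1-1 to YRF1-7 encode near-identical DNA helicases of the Y' elements, repeats that lie at the ends of yeast chromosomes. They were taken by their systematic names, and all 7 had a row of their own among the 6177 genes of the table, of which 5890 had enough values to be tested. RNA of san1 cells of budding yeast was hybridized against RNA of SAN1 cells on 12 arrays with 2 channels, 6 for cells grown in the medium that the labels call YC and 6 for cells grown in YEPD, a rich medium. In each medium the san1 RNA was in channel 2 on arrays 1 to 3 and in channel 1 on arrays 4 to 6. The labels give the genotypes as san1 and SAN1 and name no further allele, strain, mating type or growth stage, and they do not say that the arrays came from separate cultures. The p-values therefore measure the spread between these arrays, which may be technical.

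Chromosome ends in budding yeast are packed by the Sir proteins, which bind at the telomere and silence nearby genes, and Y' elements occur at many but not all ends. The helicase frame fills much of a Y' element, and its transcription is known to go up in cells that survive without telomerase, which amplify Y' elements by recombination. The product of SAN1 is a nuclear ubiquitin ligase through which misfolded proteins reach the proteasome, and the gene was first described as an antagonist of the SIR4 silencing protein. The systematic names place YRF1-1 (YDR545W), YRF1-2 (YER190W) and YRF1-3 (YGR296W) at the right ends of chromosomes IV, V and VII, and YRF1-4 (YLR466W) and YRF1-5 (YLR467W) next to each other at the right end of XII. YRF1-6 (YNL339C) and YRF1-7 (YPL283C) lie at the left ends of XIV and XVI. Because the copies are so alike, the probe of one gene can bind the RNA of the others and of related frames in Y' elements. The 7 rows are thus not 7 independent measurements, and which copy an RNA came from cannot be told from them.

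All values are log2 ratios of san1 over SAN1, so that a positive value stands for more of the transcript in san1 cells. The deposited ratios changed sign between the dye orientations and so follow the channels, but the table does not state which channel is on top. SAN1 itself was used to choose the direction. Read as channel 2 over channel 1, its ratio lay between -4.57 and -2.69 on the 6 YC arrays and between -3.94 and -3.39 on the 6 YEPD arrays, lower in san1 cells on all of them. The direction below is therefore the likely one, resting on a lower SAN1 transcript in san1 cells, and it opposes a literal reading of the descriptions, which put the dye of the SAN1 RNA on top. The opposite reading would turn every sign. The base of the logarithm is not stated either and was taken as 2.

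Transcripts read by the YRF1 probes were higher in san1 cells in both media. In YC, 7 of 7 rose in limma's test across all genes, where 13% of all genes tested rose. The fitted changes lay between 0.25 for YRF1-3 and 0.34 for YRF1-6 with a median of 0.29, and the median of all genes was -0.0016. In YEPD, 7 of 7 rose as well, where 1.71% of all genes did, with changes between 0.20 for YRF1-4 and 0.28 for YRF1-1 and a median of 0.25, against 0.0020 for all genes. The folds were small, 1.19 to 1.26 in YC and 1.15 to 1.21 in YEPD, and would be 1.29 to 1.40 and 1.22 to 1.32 were the deposited values natural logarithms.

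The rise was seen on every array. No YRF1 value fell below 0 on any array that measured it, which was the case for 1.19% of all genes tested. The mean of the 7 genes was 0.30, 0.26, 0.31, 0.38, 0.25 and 0.27 on YC arrays 1 to 6, with YRF1-7 empty on array 4, and 0.28, 0.26, 0.22, 0.26, 0.20 and 0.19 on YEPD arrays 1 to 6. The array means of the media overlapped. On each of the 12 arrays the lowest of the YRF1 values stood above 76.6% to 93.1% of the genes, and the highest above 95.9% to 99.3%. By fitted change the 7 genes ranked 54 to 175 of 5890 in YC and 68 to 132 in YEPD. Over both media together, 7 of 7 rose, where 5.87% of all genes did, and they ranked 31 to 83 by size and 5 to 33 by p-value.

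**Figure D1:**
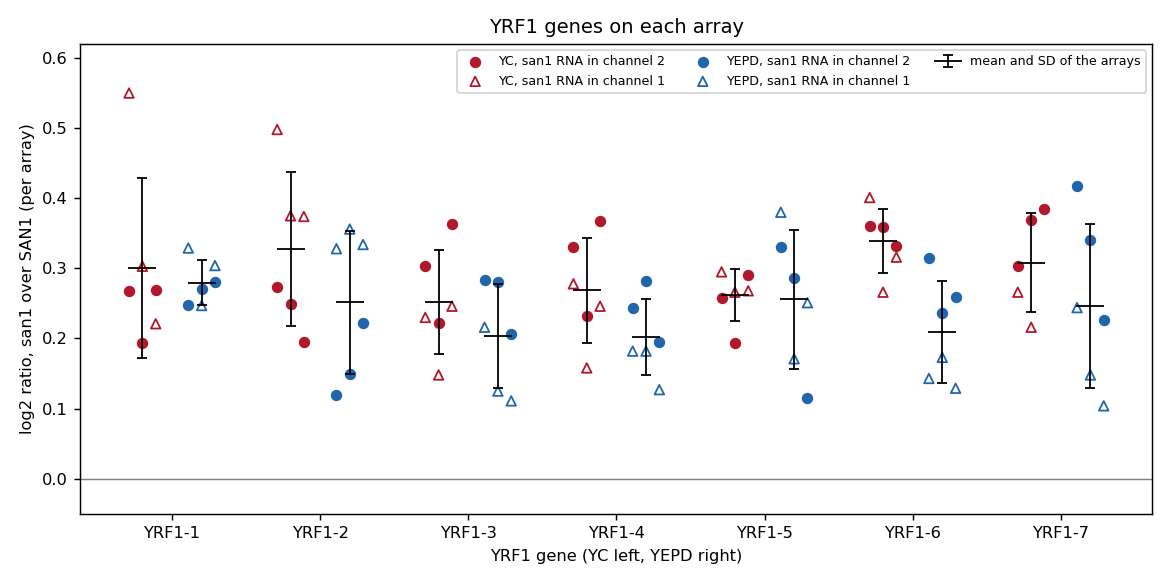
Log2 ratio of san1 over SAN1 of each YRF1 gene on each array (vertical axis), YC in red on the left and YEPD in blue on the right of each gene. Filled circles are arrays with the san1 RNA in channel 2, open triangles arrays with it in channel 1, and black bars the mean and SD. All points lie above 0, the highest being YRF1-1 on YC array 4 at 0.55 and the lowest YRF1-7 on YEPD array 6 at 0.10.

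**Figure D2:**
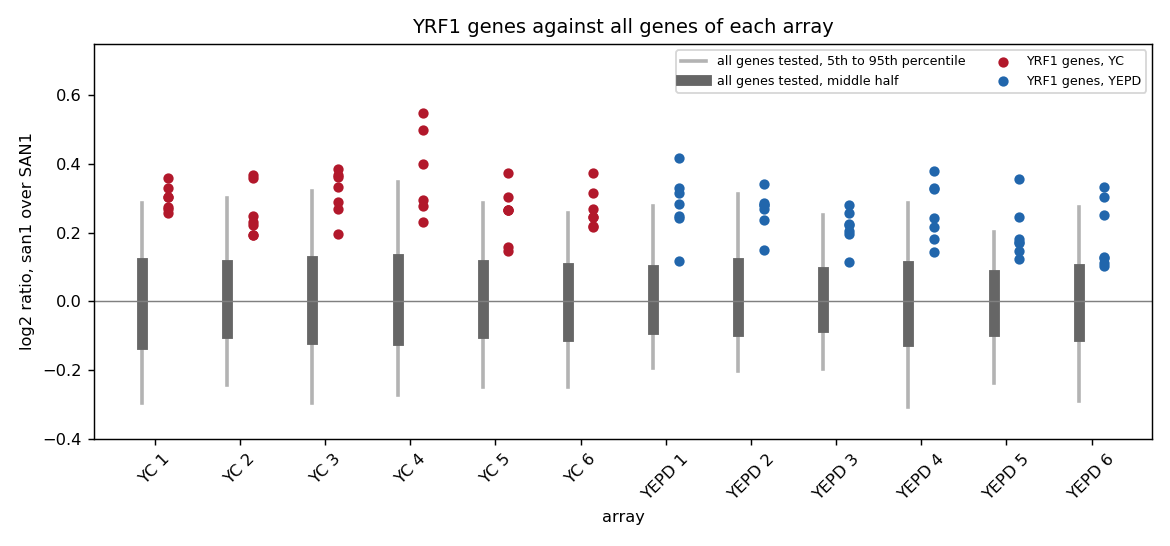
For each array, the log2 ratios of san1 over SAN1 of all genes tested (grey, middle 50% as thick and 5th to 95th percentile as thin lines) beside the YRF1 genes (dots, red for YC and blue for YEPD). All YRF1 dots lie above the middle 50% on each array, and the lowest dot of YEPD array 6, above 76.6% of its genes, comes nearest to it.

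YRF1-6 had the largest change in YC. Its YC values ran from 0.27 through a median of 0.35 to 0.40, against 0.13, 0.21 and 0.31 for the lowest, median and highest YEPD array. The media overlapped in the range between 0.27 and 0.31. The fitted change was 0.34 in YC (SE 0.027, n = 6 arrays, adjusted p = 1.3e-05) and 0.21 in YEPD (SE 0.027, n = 6, adjusted p = 0.00085, Benjamini-Hochberg over all genes in limma). For YRF1-2, at the right end of chromosome V, the lowest, median and highest values were 0.19, 0.32 and 0.50 in YC, against 0.12, 0.28 and 0.36 in YEPD. It rose by 0.33 in YC (SE 0.027, limma adjusted p = 1.3e-05) and by 0.25 in YEPD (SE 0.027, limma adjusted p = 0.00021), the lowest p among the 7 in YEPD.

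YRF1-1, at the right end of chromosome IV, had 0.19, 0.27 and 0.55 as lowest, median and highest value in YC, against 0.25, 0.28 and 0.33 in YEPD. The 0.55 came from YC array 4, and the other YC arrays reached 0.30 at most. The gene rose by 0.30 in YC (SE 0.038, limma adjusted p = 0.00026) and by 0.28 in YEPD (SE 0.038, limma adjusted p = 0.00096). Without YC array 4 its change in YC was 0.25. YRF1-7 was measured on 5 YC arrays, with lowest, median and highest values of 0.22, 0.30 and 0.38, against 0.10, 0.24 and 0.42 on the 6 YEPD arrays. Its spread in YEPD was the widest of the 7 genes (SD 0.117, n = 6). The fit, which uses the measured values only and allows for the dye, gave 0.29 in YC (SE 0.035, n = 5, limma adjusted p = 0.00027) and 0.25 in YEPD (SE 0.032, n = 6, limma adjusted p = 0.00099).

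The tandem genes YRF1-4 and YRF1-5 on chromosome XII rose by 0.27 and 0.26 in YC and by 0.20 and 0.26 in YEPD. YRF1-4 had 0.16, 0.26 and 0.37 as lowest, median and highest value in YC, against 0.13, 0.19 and 0.28 in YEPD. YRF1-5 had 0.19, 0.27 and 0.29 in YC, against 0.12, 0.27 and 0.38 in YEPD, so that its medians were alike in both media. YRF1-3, at the right end of chromosome VII, had 0.15, 0.24 and 0.36 in YC, against 0.11, 0.21 and 0.28 in YEPD. The limma adjusted p of these 3 genes lay between 6.6e-05 and 0.00034 in YC and between 0.00095 and 0.0012 in YEPD. The calls of YRF1-3 and YRF1-4 in YEPD ended, each at a limma adjusted p of 0.053, when arrays n and n plus 3 of a medium were averaged as if they were repeats of 1 RNA. The labels do not say whether such arrays share RNA. Over all genes measured on the 12 arrays, their deviations from the mean of each medium and orientation correlated at 0.37, 0.558 and -0.231 in YC and at 0.418, 0.27 and 0.0525 in YEPD.

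The order of the 7 genes rested on small differences. In YC it was YRF1-6, YRF1-2, YRF1-1, YRF1-7, YRF1-4, YRF1-5 and YRF1-3 from the largest fitted change to the smallest, and in YEPD YRF1-1, YRF1-5, YRF1-2, YRF1-7, YRF1-6, YRF1-3 and YRF1-4. No neighbours in either order differed beyond 1 SD of their difference within arrays. On the 5 YC arrays that measured both, YRF1-1 stood 0.06 below YRF1-7, the other way round from the fit. The first and the last gene of each order did differ by more than that SD, but they were picked as the ends of an order made from these values. YRF1-6 was above YRF1-3 by 0.09 on average in YC (SD 0.071, on 5 of 6 arrays), and YRF1-1 above YRF1-4 by 0.08 in YEPD (SD 0.075, on 5 of 6 arrays). Of all 21 pairs, 3 differed by more than 1 SD in YC, YRF1-6 above YRF1-3, YRF1-4 and YRF1-5, and 1 in YEPD. Over both media, 0 of 21 pairs of YRF1 genes differed by more than 1 SD, the largest mean difference being 0.06.

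The change was larger in YC than in YEPD for 7 of 7 genes, against 2794 of 5890 among all genes. The 7 rows share arrays and their probes can bind the same RNA, so they are not 7 independent counts. For none of the 7 did the difference between the media pass (limma, YC minus YEPD, 9.75% of all genes tested called in either direction, 1 YRF1 gene with an unadjusted p under 0.05). The differences ran from 0.0062 for YRF1-5 to 0.13 for YRF1-6. The direction was not kept by all 7: with arrays scaled alike or quantile normalized it held for 5 of 7, YRF1-1 and YRF1-5 turning negative, and scaling took the median difference to 0.008, against 0.048 without it. It held for 6 of 7 without YC array 3, YC array 4, YEPD array 3 or YEPD array 5. For YRF1-6 the 95% interval was 0.05 to 0.21 and the limma adjusted p 0.052. Its difference passed with a dye term for each medium (limma adjusted p = 0.04) and with genes measured on all 12 arrays alone (limma adjusted p = 0.048). It passed under no other setting. With arrays scaled alike it was 0.08 (limma adjusted p = 0.25), and with quantile normalization 0.11 (limma adjusted p = 0.12). For YRF1-2 the difference was 0.08 with an interval of -0.007 to 0.16 (limma adjusted p = 0.21), and for YRF1-4 0.07 with an interval of -0.018 to 0.15 (limma adjusted p = 0.28). For YRF1-5 the interval was -0.10 to 0.11, and for YRF1-1 -0.09 to 0.14. The YC and YEPD values overlapped for each of the 7 genes, whereas for 2.12% of all genes every YC value lay above every YEPD value.

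In limma's test the ratio depended on the dye orientation for 1 of 7 YRF1 genes, YRF1-2, where it did for 16.4% of all genes. The dye terms of the YRF1 genes were not tested against each other. YRF1-2 had values of 0.27, 0.25 and 0.19 on YC arrays 1 to 3 and 0.12, 0.15 and 0.22 on YEPD arrays 1 to 3, which carried the san1 RNA in channel 2. With the san1 RNA in channel 1 it had 0.50, 0.37 and 0.37 on YC arrays 4 to 6 and 0.33, 0.36 and 0.33 on YEPD arrays 4 to 6. The orientations of YRF1-2 thus did not overlap, which in this direction was so for 2.65% of all genes. YRF1-7 went the other way, with 0.30, 0.37 and 0.38 in YC and 0.42, 0.34 and 0.23 in YEPD with the san1 RNA in channel 2. With it in channel 1, YRF1-7 had 0.27 and 0.22 on YC arrays 5 and 6 and 0.24, 0.15 and 0.10 on YEPD arrays 4 to 6.

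The dye term, which is positive where ratios were higher with the san1 RNA in channel 2, was -0.088 for YRF1-2 (SE 0.019, n = 12 arrays, limma adjusted p = 0.014) and 0.070 for YRF1-7 (SE 0.024, n = 11, limma adjusted p = 0.063). It passed for YRF1-2 alone among the 7, and for 16.4% of all genes, and without YC array 1 YRF1-7 passed too (adjusted p = 0.042). YRF1-3 (0.049), YRF1-4 (0.040) and YRF1-6 (0.036) lay on the side of YRF1-7, and YRF1-1 (-0.035) and YRF1-5 (-0.013) on that of YRF1-2, none of them passing. Since each medium held 3 arrays of each orientation, the term cancels in the means of the genes with complete values. Within either orientation and medium, the mean of each YRF1 gene stayed above 0, with the lowest at 0.15 for YRF1-6 in YEPD with the san1 RNA in channel 1.

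**Figure D3:**
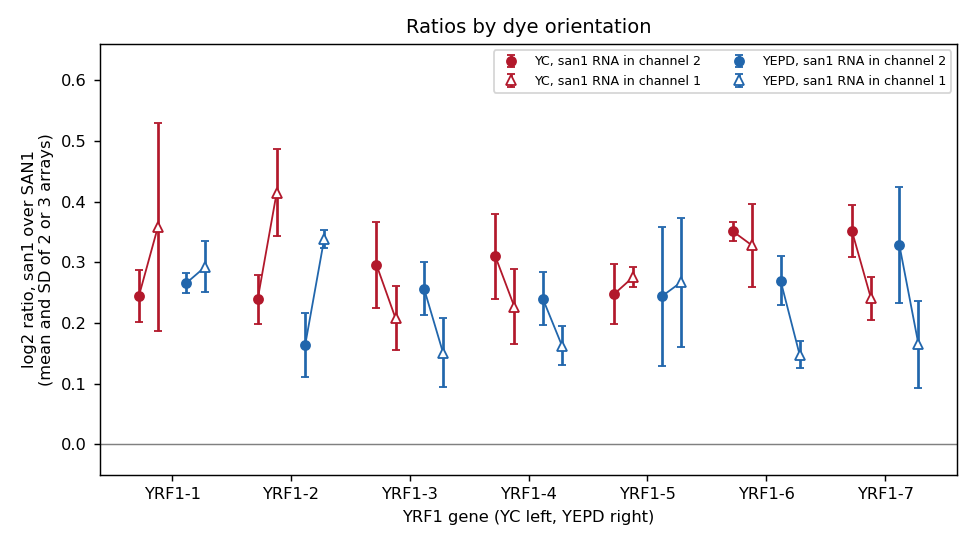
Mean log2 ratio of san1 over SAN1 (vertical axis) of each YRF1 gene by medium and dye orientation, with the SD of 3 arrays (2 for YRF1-7 in YC with the san1 RNA in channel 1). Circles have the san1 RNA in channel 2 and triangles in channel 1, with YC in red left of YEPD in blue, and lines join the orientations of a medium. The lines of YRF1-1, YRF1-2 and YRF1-5 slope upward and those of YRF1-3, YRF1-4, YRF1-6 and YRF1-7 downward in both media.

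Near-identical genes did not all vary alike from array to array. Over the 12 arrays, the values of YRF1-3 and YRF1-4 had a Pearson correlation of 0.92 and a root mean square difference of 0.028, the smallest among the 21 pairs, which reached 0.17. YRF1-3 and YRF1-7 correlated at 0.80 and YRF1-6 and YRF1-7 at 0.72, over the 11 arrays that measured YRF1-7. YRF1-1 and YRF1-2 correlated at 0.61. YRF1-2 and YRF1-7 ran opposite to each other with a correlation of -0.76 over 11 arrays. With the mean of each medium and orientation removed, YRF1-3 and YRF1-4 stood at 0.87, YRF1-5 and YRF1-7 at 0.78, and YRF1-2 and YRF1-7 at -0.69. These correlations describe spots that share the same arrays and hybridizations, and they carry no test.

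**Figure D4:**
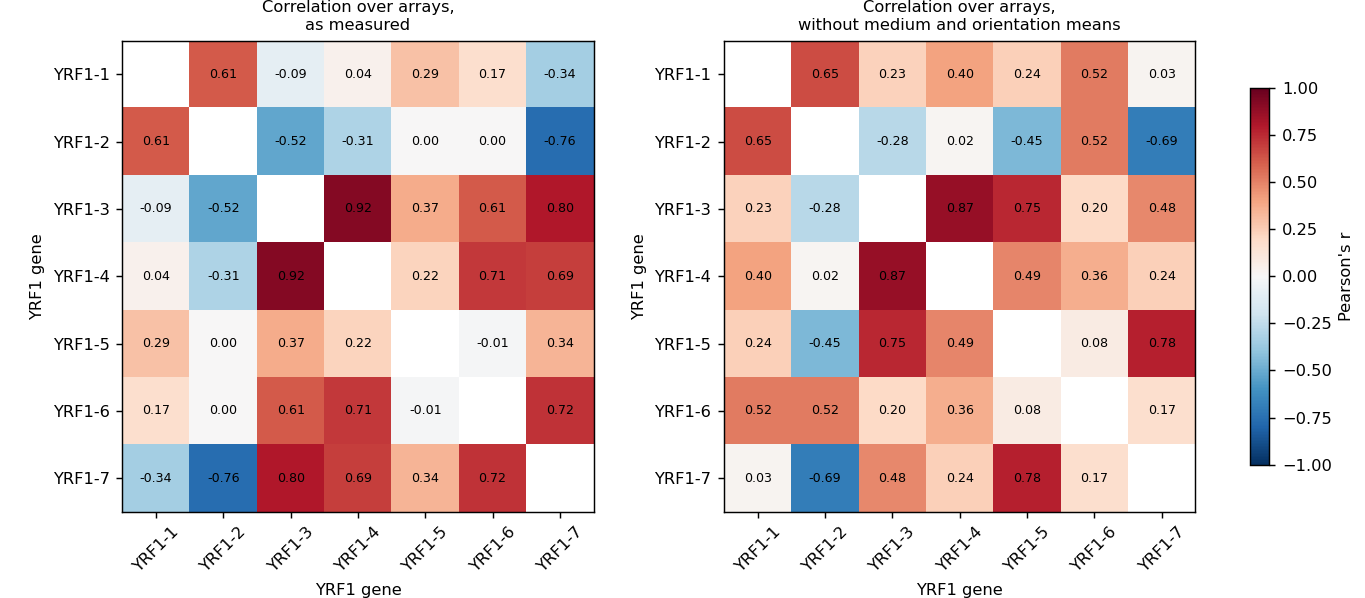
Pearson's correlation between YRF1 genes over 12 arrays (11 where YRF1-7 is involved), as measured on the left and with the mean of each medium and dye orientation removed on the right. Red is positive and blue negative. YRF1-3 and YRF1-4 are at 0.92 and 0.87, and YRF1-2 and YRF1-7 at -0.76 and -0.69.

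Many other reading frames of Y' elements rose too. Of 30 such frames listed, 28 were tested. In YC 15 rose, 0 fell and 13 did not pass, where 13% of all genes rose, with a median of 0.16 and 19 at an unadjusted p under 0.05. In YEPD 25 rose, 0 fell and 3 did not pass, where 1.71% of all genes rose, with a median of 0.26 and 27 at an unadjusted p under 0.05. Frames of Y' elements are related in sequence, and whether their probes bound RNA of the YRF1 genes was not tested. YBL113C, YJL225C, YHL050C and YML133C had the lowest p among them. YBL113C, a helicase-like frame at the left end of chromosome II, rose by 0.35 in YC (SE 0.029, limma adjusted p = 1.3e-05) and by 0.25 in YEPD (SE 0.029, limma adjusted p = 0.00033), close to YRF1-6 and YRF1-2. YHL050C stood at 0.30 and 0.22, YJL225C at 0.29 and 0.25, and YML133C at 0.30 and 0.23 in YC and YEPD.

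The larger change was in YC for 7 of 7 YRF1 genes, a count of 5 of 7 with arrays scaled alike or quantile normalized. It was in YEPD for 21 of the 28 other frames, and for 22 of 28 under both of these settings. The other 7 frames were larger in YC, so this direction was not particular to the YRF1 genes. Among those 7 were the frames with the lowest p, YBL113C (0.10), YHL050C (0.09), YML133C (0.07) and YJL225C (0.04), and also YEL077C (0.09). None of these differences passed in limma. Among all genes the larger change was in YC for 2794 of 5890 and in YEPD for 3096. The median difference, YC minus YEPD, was 0.05 for the YRF1 genes and -0.11 for the other frames, against -0.0076 for all genes, and 0.008, -0.14 and -0.007 with arrays scaled alike. YLR465C, a frame at the right end of chromosome XII named here after its values were seen, was the 1 frame whose difference passed (-0.32, limma adjusted p = 0.046), with 0.01 in YC and 0.33 in YEPD. The mean of the other frames was 0.16, 0.32, 0.14, 0.16, 0.13 and 0.06 on YC arrays 1 to 6, and 0.34, 0.34, 0.23, 0.31, 0.14 and 0.19 on YEPD arrays 1 to 6. The YRF1 mean exceeded that of the other frames on 5 of 6 YC arrays, by 0.13 to 0.21, and lay 0.06 below it on YC array 2. On YEPD arrays the YRF1 mean lay between 0.07 below and 0.06 above it. Whether YRF1 genes and other frames differ in their response to the medium was not tested.

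Genes on the inner side of the YRF1 genes that lie outside Y' elements did not pass as higher in either medium, but in YEPD nearly all stood slightly above 0. The 5 next genes toward the centromere were taken from the RefSeq gene order (assembly R64) at each of the 6 loci, counting YRF1-4 and YRF1-5 as one. Of the 30 genes, 3 are Y' frames of the list above, namely YER189W, YLR464W and YLR462W, and those rose in YEPD (0.20, 0.31 and 0.29). Of the other 27, 25 were tested. In YC 0 rose and 4 fell, where 13% and 11.8% of all genes did, with a median of -0.04 and 8 at an unadjusted p under 0.05 in limma. In YEPD 0 rose and 0 fell in limma, where 1.71% and 0.323% of all genes did, with 24 of 25 above 0 against 3045 of 5890 among all genes, a median of 0.07 against 0.0020, and 10 at an unadjusted p under 0.05. Over both media 1 rose, the pyridoxine-related gene SNO2 near YRF1-6 (0.08, limma adjusted p = 0.044), where 5.87% of all genes did. For the difference between the media 4 of the 25 passed, all lower in YC. Among all genes 251 of 5890 passed as lower there, and 9.75% passed in either direction. The genes that fell in YC were YLR460C (-0.21) and the GPI transamidase subunit gene GAB1 (-0.14) near YRF1-4, the maltose regulator gene MAL13 (-0.14) near YRF1-3, and the fluoride exporter gene FEX2 (-0.13) near YRF1-7. The seripauperin gene PAU10 was next to YRF1-1 in the RefSeq order, which does not place the listed Y' frames YDR543C and YDR544C between them. PAU10 stood at -0.10 in YC and 0.14 in YEPD and passed in neither, but its difference between the media passed (-0.23, limma adjusted p = 0.033).

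**Figure D5:**
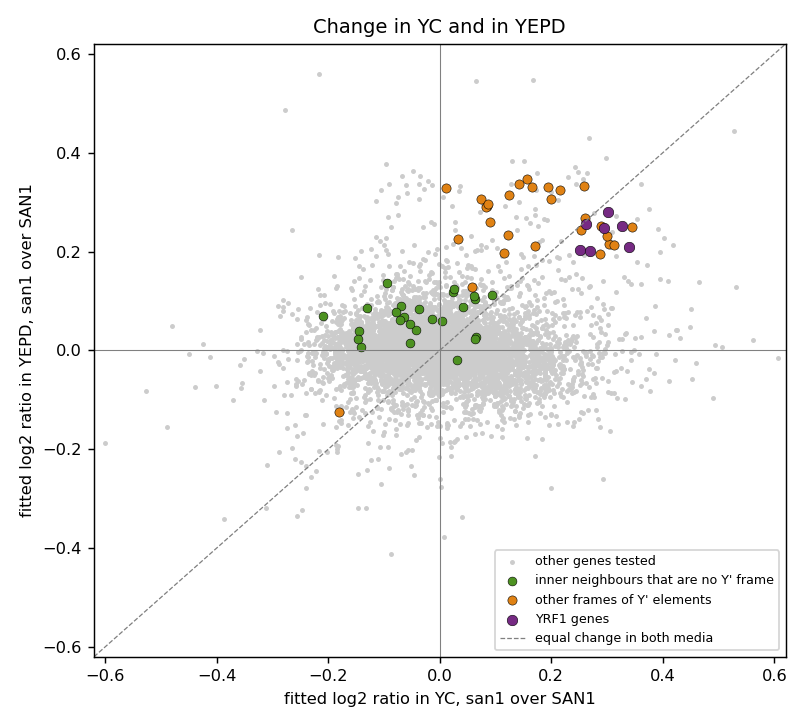
Fitted log2 ratio of san1 over SAN1 in YC (horizontal axis) against that in YEPD (vertical axis) for the genes tested, with 9 genes outside the axes. Purple dots are the YRF1 genes, orange dots other frames of Y' elements, green dots inner neighbours that are no Y' frame, and the dashed line marks equal change. The 7 YRF1 genes lie below the line and 21 of 28 other frames above it, against 3096 of all 5890 genes tested above it. The 25 neighbours lie on both sides of 0 in YC, and 24 of them lie above 0 in YEPD.

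Genes whose products act on chromosome ends are given with the shares of all genes beside them. Of 34 silencing and telomere-binding factors, 33 were tested. In YC 4 rose, 1 fell and 28 did not pass, where 13% of all genes rose and 11.8% fell. In YEPD 1 rose and 32 did not pass, where 1.71% of all genes rose. SIR2, encoding the histone deacetylase of the Sir complex, rose in YEPD (0.21, SE 0.036, limma adjusted p = 0.0073) and stood at 0.08 in YC (limma adjusted p = 0.08). In YC the histone chaperone gene ASF1 rose by 0.23 (limma adjusted p = 0.0035), and ESC1, encoding a perinuclear protein that anchors silent chromatin, by 0.14 (limma adjusted p = 0.022). The other 2 that rose, named after their values were seen, were SAS4 and RLF2, encoding parts of a histone acetyltransferase and of chromatin assembly factor I. TBF1, encoding a protein that binds subtelomeric repeats, fell by 0.10 in YC (limma adjusted p = 0.039).

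Of 15 telomerase and end-capping genes, 0 passed in either medium in limma, where 13% of all genes rose and 11.8% fell in YC. In YEPD 1.71% of all genes rose and 0.323% fell. Of the 15, 1 had an unadjusted p under 0.05 in YC and 0 in YEPD. Their changes lay between -0.08 and 0.07 in YC and between -0.03 and 0.08 in YEPD. Of 21 recombination and other DNA helicase genes, 20 were tested. In YC 2 rose and 18 did not pass, and in YEPD 0 passed in limma, with 0 at an unadjusted p under 0.05. Those that rose were POL32, encoding a subunit of DNA polymerase delta (0.15, limma adjusted p = 0.022), and the exonuclease gene EXO1 (0.10, limma adjusted p = 0.038). Shares of 4 in 33 and 2 in 20 are near the 13% of all genes that rose in YC.

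Genes specific to a or alpha cells were read to see whether the strains were alike in mating type. Of 11 tested, ASG7 rose in YC (0.17) and SAG1 (-0.24), STE3 (-0.21) and BAR1 (-0.15) fell there, where 13% of all genes rose and 11.8% fell, while in YEPD 0 passed in limma, with 1 at an unadjusted p under 0.05. The changes stayed between -0.24 and 0.17 in YC and between -0.17 and 0.21 in YEPD, and both a-specific and alpha-specific genes were among the 4 that passed. Their part in the YRF1 result was not tested.

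The pattern over the arrays that was most like the mean of the YRF1 genes was sought among 4646 other genes measured on all 12 arrays, by Pearson's correlation. The 10 highest lay between 0.78 and 0.87 and were HNT3, YOR283W, YEL077C, YBL036C, HIS4, IDI1, BUD21, LAS1, ASF1 and YNL114C. YEL077C, at 0.83, was the 1 frame of a Y' element among them and rose in both media (0.29 in YC, 0.20 in YEPD). The other 9 lay between -0.13 and 0.04 in YEPD, so there they were not like the YRF1 genes in level. In YC they lay between 0.07 and 0.23, and HNT3, YOR283W, HIS4, IDI1 and ASF1 rose, where 13% of all genes did. With the means of each medium and orientation removed, the 10 highest lay between 0.79 and 0.87, and YEL077C (0.83) and HIS4 (0.81) were again among them, with PIN2 first at 0.87. These genes share arrays with the YRF1 genes, and the correlations are a description.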

How the data were processed

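The deposited table holds 1 log ratio per spot and array, taken as log2, with column medians as deposited between -0.0029 and 0.0033. How arrays were scanned, corrected, normalized and filtered, and the log base, is not given in the sources used here. YC arrays 1 to 3 carry YEPD in their descriptions but YC in titles and source names, which were followed. Each array held 5836 to 6180 values. The number of arrays and the spread between them, and not a read depth, limit the precision of a gene's change.

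Of 6204 rows, 5704 matched a locus tag and 42 a synonym in the RefSeq table of assembly R64, used for names and gene order only, and 458 kept the name in the file. Rows of a gene were averaged (27 genes). Arrays were centred on their median and turned to san1 over SAN1. A gene needed at least 2 values per medium and dye orientation, and 287 fell short. A mean per medium and 1 dye term were fitted with limma 3.58.1 in R 4.3.3 (two-sided, Benjamini-Hochberg over 5890 genes, called at an adjusted p under 0.05). Genes with empty cells were fitted on their measured values. No YRF1 gene was removed by the filter.

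On simulated data of 5890 genes with the spread of the real ones, the tested fit recovered 75% of changes of 0.25 in YC, 78% in YEPD and 34% for the difference between the media. Of the calls made, 5.14%, 2.3% and 5.08% were false. Arrays were simulated as independent. A change of 0.25 was given to 100 genes in YC and to 50 each in YEPD and for the difference, and a change of 0.4 to as many. The real fit called 1462, 120 and 574 genes. The share recovered depends on how many genes change, so it need not hold for the real tests.

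The YRF1 genes, the gene lists and the tests were chosen with earlier results of these data known. The names given are the YRF1 genes, SAN1, up to 4 genes per list called in either medium with the lowest p over both, the called genes among the inner neighbours, and the 10 genes most like the YRF1 mean, the second such 10 being named in part. PAU10, SNO2, YLR465C, SAS4 and RLF2 were named after their values were seen. The Y' list was drawn up from general knowledge, and YOR396W and YPR204W were not analysed here. Alternatives covered centring, scaling, the dye term, the arrays fitted, the array number as a block, averaged arrays, filters, rows, the prior, the threshold and each array left out.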

Additional observations from a re-analysis of the deposited data

Results flagged for a closer look

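Of 102 sets of arrays of 1 medium screened for a value far from the rest, over 51 named genes, 7 (6.86%) held one, where chance gives about 5%. They were YRF1-1 on YC array 4 (0.55, the others between 0.19 and 0.30), YRF1-5 on YC array 2 (0.194, the others between 0.26 and 0.29), and the Y' frames YML133C on YEPD array 4 (0.332) and YEL077C on YEPD array 3 (0.1). SIR2 on YC array 4 (0.175), EXO1 on YC array 3 (-0.0254) and YLR460C on YC array 4 (-0.0265) were the others.

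The change differed between the media in limma's test of YC minus YEPD for 11 of the 51 named genes, none of them a YRF1 gene. Among all genes tested 9.75% passed. Many of the names were chosen by their values in these data, PAU10 and YLR465C after those were seen, so the count cannot be set against that share. ASF1 (0.298), IDI1 (0.291) and HNT3 (0.187) were higher in YC. YLR465C (-0.317), SAM3 (-0.29), YLR460C (-0.278), PAU10 (-0.231), FEX2 (-0.216), SAG1 (-0.215), GAB1 (-0.185) and BAR1 (-0.142) were lower there.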

How the results depend on the processing

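The 7 rises in YC and the 7 over both media held under all alternatives tried, with changes of the single genes between 0.23 and 0.35 in YC, except that 6 of 6 remained measurable with values on all 12 arrays. In YEPD 7 rose under all but that one (6 of 6) and the averaging of arrays n and n plus 3 (5). With the array number as a replicate block, 7 rose in YC, 7 in YEPD and 7 over both, and 0 passed for the difference. The deviations of arrays of equal number correlated from -0.341 (YC 4 and YEPD 4) to 0.224 (YC 6 and YEPD 6). Those of arrays n and n plus 3 lay between -0.231 and 0.558, above 0.1 in 4 of 6 pairs. These correlations cannot tell which arrays share a culture or day, and the labels do not say. For the difference, YRF1-6 passed by itself with a dye term per medium (1 gene) or with values on all 12 arrays (1 gene), and 0 genes passed when any single array was left out. The limma adjusted p of YRF1-6 went up to 0.248, with arrays scaled alike. The differences of YRF1-1 and YRF1-5, near 0, turned negative with arrays scaled alike (-0.0293 and -0.0299) and with quantile normalization (-0.00125 and -0.0186). Leaving out single arrays put YRF1-1 between -0.0262 and 0.0469 and YRF1-5 between -0.0221 and 0.031. The dye term of YRF1-5 lay between -0.0238 and 0.00123 without single arrays. The dye term passed for 1 to 2 genes without single arrays, 2 without YC array 1, and for 0 at an adjusted p under 0.01. The cause of these shifts was not tested.

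The counts over all genes moved more. They were 1462 in YC (928 with its arrays alone, 901 with the block, 816 averaged, 671 at 0.01), 120 in YEPD (65 averaged, 74 at 0.01), 574 for the difference (244 without a dye term, 46 with the block, 3 averaged, 73 at 0.01, 169 to 800 without single arrays) and 611 over both (373, 268, 197 and 229 under the same 4, and 347 to 742 without single arrays). The dye term passed for 964 genes, 107 at 0.01, and 379 to 1439 without single arrays. YEPD arrays 4 and 6 lay close to each other (SD of their difference 0.106, against 0.155 to 0.175 for other YEPD pairs of 1 orientation). Averaging them, an alternative chosen after seeing the data, kept the counts of YRF1 genes at 7, 7, 0 and 7 and left 201 genes for the difference and 451 for the dye term.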
